A study of Mus musculus with 8 samples.

Results

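The interferon-inducible GTPases described here are 10 listed mouse genes: the guanylate-binding proteins Gbp2, Gbp3, Gbp4, Gbp5 and Gbp7, and the immunity-related GTPases Irgm1, Irgm2, Igtp, Iigp1 and Gm4841. They were chosen by their log2 difference between injured muscle of aged mice given recombinant interleukin-33 (rIL-33) and muscle of mice given PBS, overall and within each genetic background label. The treatment differences below therefore describe the choice and carry no test. Interleukin-33 is an alarmin, a cytokine released by damaged cells, that acts on regulatory T cells, mast cells and innate lymphoid cells. Of the 10 genes, 7 had a probe set that names no other gene. These 7 were above the dim cut-off and stand among the 14814 genes tested. Gbp2, Irgm2 and Igtp were seen only through probe sets that name other genes as well.

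Whole tibialis anterior, a muscle of the lower hind leg, came from male C57BL/6 mice, aged 99 weeks by the labels and 22 months by the design text. The muscle of every mouse was injured with a metal probe chilled in liquid nitrogen, held for 8 seconds, and was harvested at day 8 after injury. On the day before and the day after injury, the rIL-33 group received 2 µg of rIL-33 into the peritoneal cavity. The other group carries the treatment label PBS. Each group held 4 arrays. The background label reads C57BL/6 for replicates 1 and 2 and WT for replicates 3 and 4, with no statement of how the 2 labels differ. Whether every array stands for a separate mouse is not stated either, so a p-value covers the spread of these arrays, which may be technical.

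Both families hydrolyse GTP and defend cells from within. Interferon-gamma, made mainly by natural killer (NK) cells and T cells, acts through transcription factors such as IRF1 to switch on their genes in macrophages, endothelium, fibroblasts and other cells. Effector members gather on the vacuoles of invading microbes and break them open, and guanylate-binding proteins also help to start inflammasomes. Irgm1, Irgm2 and Igtp, also known as Irgm3, sit on the cell's own membranes and keep effector members inactive there.

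Interferon signals reach these genes through short promoter motifs. The interferon-stimulated response element (ISRE) is bound by interferon regulatory factors. The gamma-activated site (GAS) is the element named for the response to interferon-gamma. The RefSeq promoter table (GRCm38.p6) held 7 of the 10 genes: Gbp2, Gbp3, Gbp5, Gbp7, Irgm1, Irgm2 and Igtp. The ISRE core, GAAA followed by any 2 bases and again GAAA, was searched on both strands of the 250 bases before each start. So were the GAS letters, TTC followed by any 3 bases and GAA, which read alike on either strand. The ISRE core stood before all 7 of these genes, and in 2.98% of the 32851 promoters of the table. The GAS letters stood before Gbp5, Gbp7, Igtp and Irgm2, and in 7.02% of all promoters. Both stood together in 0.332% of all promoters.

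The stretches below end at the last base before the start and show 5 of these promoters, because they show the motifs in each family and the near-repeat that Igtp and Irgm2 share. Matches are in capitals, and TTTC, 2 bases and TTTC is the ISRE core read on the other strand. They lie at chr11:48871421-48871530 (minus strand) for Irgm1, and on the plus strand at chr11:58199446-58199555 for Igtp, chr11:58214867-58214976 for Irgm2, chr3:142530226-142530335 for Gbp7 and chr3:142620553-142620662 for Gbp2.
Irgm1: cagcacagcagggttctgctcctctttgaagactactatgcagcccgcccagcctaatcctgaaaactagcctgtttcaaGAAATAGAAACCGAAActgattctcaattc
Igtp: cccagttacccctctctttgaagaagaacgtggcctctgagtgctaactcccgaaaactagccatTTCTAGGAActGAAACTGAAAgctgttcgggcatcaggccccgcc
Irgm2: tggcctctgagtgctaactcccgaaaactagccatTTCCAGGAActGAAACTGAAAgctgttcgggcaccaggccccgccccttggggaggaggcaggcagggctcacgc
Gbp7: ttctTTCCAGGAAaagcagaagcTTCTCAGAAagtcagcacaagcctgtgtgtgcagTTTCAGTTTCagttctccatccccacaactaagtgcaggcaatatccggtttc
Gbp2: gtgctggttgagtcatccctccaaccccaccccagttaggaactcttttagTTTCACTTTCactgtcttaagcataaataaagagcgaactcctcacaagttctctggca
In Irgm1, 2 overlapping ISRE cores began 30 and 24 bases before the start. In Igtp the GAS letters began 45 bases before the start and the ISRE core 34 bases. Irgm2 held the same pair of motifs in the same order, at 75 and 64 bases. Gbp7 held GAS letters at 106 and 87 bases and an ISRE core at 53 bases, while Gbp2 held an ISRE core alone, at 59 bases. Among promoters not shown, that of Gbp5 had an ISRE core at 165 bases and GAS letters at 245 and 52 bases. Gbp3 had 2 overlapping ISRE cores at 45 and 39 bases in 1 of its 2 listed promoters. A match describes the letters and is not a measured binding site.

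The effector Iigp1, also known as Irga6, was 3.30-fold higher with rIL-33 (log2 difference 1.72, SE 0.60) and Gm4841, a predicted relative of it, 4.38-fold higher (2.13, SE 0.55). These were the largest differences among the 7 genes, and in both the 4 rIL-33 arrays lay above the 4 PBS arrays. Iigp1 had log2 intensities of 8.93, 9.26, 12.24 and 11.03 on rIL-33 replicates 1 to 4, and of 8.79, 8.59, 8.31 and 8.88 on PBS replicates 1 to 4. The high arrays were rIL-33 replicates 3 and 4, both labelled WT, whereas replicates 1 and 2 lay nearer to the PBS arrays. Gm4841 had 9.25, 10.07, 12.20 and 11.74 with rIL-33 and 8.91, 8.51, 8.35 and 8.98 with PBS. Here rIL-33 replicate 2 also stood clearly above the PBS arrays. The group levels were 10.36 ± 1.55 against 8.64 ± 0.25 for Iigp1 and 10.82 ± 1.39 against 8.69 ± 0.31 for Gm4841 (mean ± SD, n = 4 arrays each). In both genes the spread was wider with rIL-33 than with PBS.

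Irgm1, the regulator whose loss in mice impairs defence against mycobacteria, was 1.92-fold higher with rIL-33 (0.94, SE 0.44). Its levels were 9.49, 9.87, 12.01 and 10.83 with rIL-33 and 9.68, 9.64, 9.34 and 9.79 with PBS, or 10.55 ± 1.13 against 9.61 ± 0.19. The groups overlapped, since rIL-33 replicate 1 lay among the PBS arrays. The other regulators, Irgm2 and Igtp, share 1 probe set, whose value belongs to neither gene alone. It read 9.34, 9.80, 12.48 and 10.90 with rIL-33 and 9.31, 9.13, 8.61 and 9.32 with PBS, a difference of 1.53. The rIL-33 arrays lay above the PBS arrays there, replicate 1 by the smallest margin.

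Among the guanylate-binding proteins, Gbp4 differed most between the groups, at 2.23-fold (1.16, SE 0.26). It read 9.60, 9.43, 10.82 and 10.23 with rIL-33 and 9.18, 8.75, 8.64 and 8.88 with PBS, or 10.02 ± 0.63 against 8.86 ± 0.23. All 4 rIL-33 arrays were above all 4 PBS arrays, those labelled C57BL/6 included. Gbp7, reported to support oxidative and autophagic defence, read 8.65, 8.71, 10.79 and 9.65 with rIL-33 and 8.61, 8.63, 8.45 and 8.94 with PBS. Its difference was 0.79 (SE 0.40, 1.73-fold), with means of 9.45 ± 1.00 and 8.66 ± 0.21. Replicates 1 and 2 of rIL-33 stood close to PBS replicates 1 and 2 and below PBS replicate 4, so the groups overlapped.

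Gbp5, which promotes assembly of the NLRP3 inflammasome, read 7.37, 7.10, 8.23 and 7.75 with rIL-33 and 7.07, 7.0, 6.68 and 7.28 with PBS. It was 1.52-fold higher (0.61, SE 0.22), from 7.01 ± 0.25 to 7.61 ± 0.49, with rIL-33 replicate 2 within the PBS range. Gbp3 read 8.34, 8.22, 9.17 and 8.71 with rIL-33 and 8.13, 8.06, 7.93 and 8.31 with PBS. It had the smallest difference of the 7 genes, 1.41-fold (0.50, SE 0.18; 8.61 ± 0.43 against 8.11 ± 0.16), and its groups overlapped through rIL-33 replicate 2. Gbp2, which is recruited to the vacuole of Toxoplasma, shares its probe set with Gbp2b. That probe set read 8.74, 9.06, 10.33 and 9.85 with rIL-33 and 9.0, 8.83, 8.42 and 8.95 with PBS, a difference of 0.70 with overlapping groups.

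**Figure D1:**
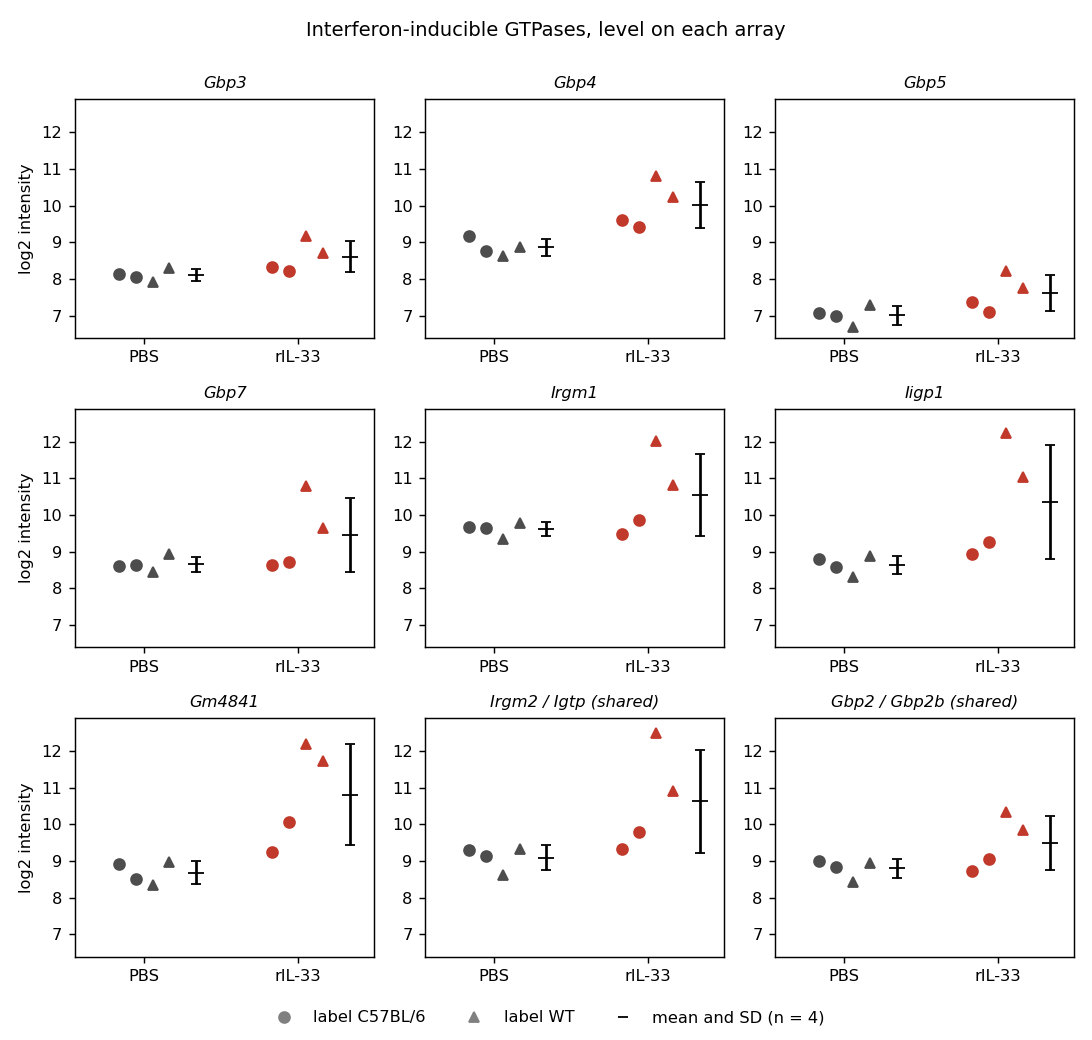
Each panel plots the log2 intensity of 1 probe set on the 4 PBS arrays (grey) and the 4 rIL-33 arrays (red), with circles for the label C57BL/6, triangles for the label WT, and the mean and SD (n = 4) beside them. In every panel the highest points are the rIL-33 arrays labelled WT, and the 4 PBS arrays lie close together, with SDs of 0.16 to 0.31 for the 7 genes with their own probe set.

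All 7 genes had a higher mean with rIL-33, as did 48% of all genes tested. Their median difference was 0.94 (range 0.50 to 2.13), and the median over all genes tested was -0.01. The arrays of the groups did not overlap, with rIL-33 above, in 3 of the 7 genes (Gbp4, Iigp1 and Gm4841), as in 2.44% of all genes tested. Across all genes 1 of 14814 (0.00675%) passed the limma test of treatment at an adjusted p of 0.05. It was Retnla, a marker of alternatively activated macrophages and none of the GTPases, named here after its value was seen. The overall difference of each GTPase rested in part on rIL-33 replicate 3. Without that array the differences were 0.31 for Gbp3, 0.40 for Gbp5, 0.34 for Gbp7, 0.45 for Irgm1, 0.89 for Gbp4, 1.10 for Iigp1 and 1.67 for Gm4841, and their median was 0.45. In whole muscle, more cells of an expressing type and more RNA per cell cannot be told apart.

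The treatment difference was larger within the label WT than within the label C57BL/6 in each of the 7 genes. The choice of genes drew on these values too, so they are a description, from 2 against 2 arrays in each label. Within WT the differences ran from 0.82 in Gbp3 to 3.31 in Gm4841, with a median of 1.76, and 50.5% of all genes tested were above 0. Within C57BL/6 they ran from 0.02 in Irgm1 to 0.95 in Gm4841, with a median of 0.20, and 45.3% of all genes tested were above 0. The medians over all genes tested were 0.00251 within WT and -0.01 within C57BL/6. Gm4841 was 9.92-fold and Iigp1 8.22-fold higher within WT, against 1.93-fold and 1.32-fold within C57BL/6. Gbp4, the third gene whose groups did not overlap, was 3.39-fold higher within WT and 1.47-fold within C57BL/6. Gbp7 and Irgm1 were 2.87-fold and 3.62-fold higher within WT, while their differences within C57BL/6 were 0.06 and 0.02.

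Within WT both rIL-33 arrays lay above both PBS arrays in 7 of 7 genes, as in 27% of all genes tested. Within C57BL/6 this held for 6 of 7 genes, with Irgm1 the exception, and for 14% of all genes tested. The shared probe sets had the same order: Irgm2 with Igtp differed by 2.72 within WT and 0.35 within C57BL/6, and Gbp2 with Gbp2b by 1.41 and -0.01. The difference between the labels has no test for the chosen genes. Over all genes tested, the term for a treatment difference that depends on the label passed in 0 of 14814 genes (limma, smallest adjusted p = 0.66), and 473 genes (3.19%) had an unadjusted p under 0.05.

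**Figure D2:**
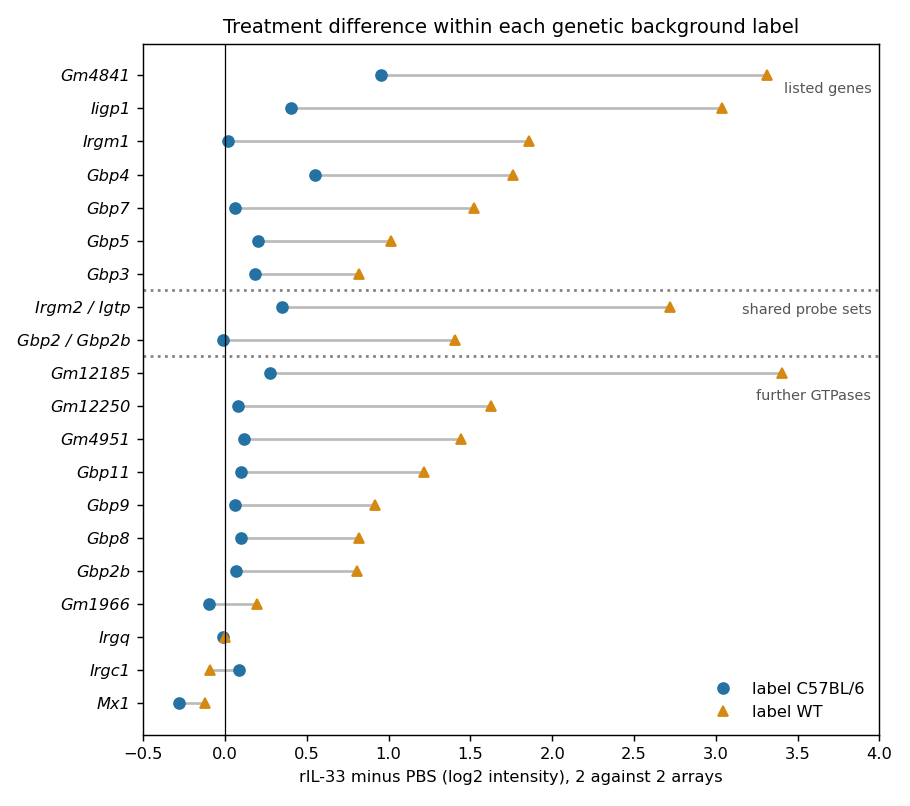
The x axis gives the treatment difference (rIL-33 minus PBS, log2 intensity, 2 against 2 arrays) within the label C57BL/6 (circles) and within the label WT (triangles) for the 7 listed genes with their own probe set, the 2 probe sets that hold the other 3 listed genes, and 11 further GTPases tested. The triangle lies to the right of the circle in each listed gene, at 0.82 to 3.31 against 0.02 to 0.95, while Irgq, Irgc1 and Mx1 lie near or below 0.

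The 7 genes also kept a common order of arrays. In each of them rIL-33 replicate 3 was highest and rIL-33 replicate 4 second, an order seen in 1.84% of all genes tested. PBS replicate 3 was lowest in each of the 7, as in 26.5% of all genes tested. Relative to the PBS mean, the mean over the 7 genes was higher by 2.27 on rIL-33 replicate 3 and by 1.48 on replicate 4, and by 0.29 and 0.44 on replicates 1 and 2. On the PBS arrays it was 0.11, -0.06, -0.27 and 0.21. On rIL-33 replicate 3 Iigp1 stood 12.1-fold, Gm4841 11.5-fold and Irgm1 5.27-fold above the PBS mean. On replicate 4 the same genes stood 5.23-fold, 8.33-fold and 2.33-fold above it. Replicate 4 thus held the higher values of these genes as well, at a smaller size than replicate 3 in each.

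The levels moved together from array to array. Over the 8 arrays Pearson's r for the 21 pairs of genes ran from 0.89 to 0.992, with a median of 0.949. After each treatment group was centred on its mean, the median was 0.938 (0.834 to 0.991). After centring on treatment and label together it was 0.791, and the lowest pair was Gbp5 with Gm4841 at 0.41. Iigp1 followed the mean of the other 6 genes most closely (r = 0.997) and Gbp4 least closely (r = 0.953). These are descriptions over 8 arrays of genes chosen for a like pattern.

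The level of the label WT minus that of C57BL/6, with treatment held in the model, rests in part on the same WT-labelled rIL-33 arrays that entered the choice of genes, so it too is given with no test. WT-labelled arrays were higher by 1.22 (SE 0.47) for Iigp1 and by 1.14 (SE 0.42) for Gm4841. Irgm1 and Gbp7 differed by 0.83 (SE 0.36) and 0.81 (SE 0.31), and Gbp4, Gbp5 and Gbp3 by 0.40 (SE 0.23), 0.35 (SE 0.19) and 0.34 (SE 0.15). The arrays of the labels overlapped in all 7 genes. Among the PBS arrays alone, WT minus C57BL/6 ran from -0.20 in Gbp4 to 0.08 in Gbp7, and the labels overlapped in all 7 genes there too. Over all genes tested, 9.4% passed the limma test of the label and 3.19% passed as higher with WT, from which nothing is read about the 7 genes. That overall count was 1392 genes and ran from 10 without rIL-33 replicate 1 to 2509 without rIL-33 replicate 2.

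Of the further GTPases of the same families, none passed the test of treatment. Of 25 names listed, 12 had a probe set of their own and 11 were tested. Of these, 0 passed (limma, lowest adjusted p = 0.489), 8 were higher and 3 lower, and 5 were higher at an unadjusted p under 0.05, a level that 4.39% of all genes reached as higher. Those 5 were Gm12185, Gm4951, Gbp8, Gbp9 and Gbp11, and Gm12185 was tested only because its rIL-33 arrays lifted its mean over the dim cut-off. In 7 of the 11, rIL-33 replicate 3 was highest and replicate 4 second, against 1.84% of all genes tested, and PBS replicate 3 was lowest in 5. Gm12185 and Gbp2b, with PBS means under the dim cut-off, are among those 7 and among the 8 higher genes. They entered these counts and the medians through their rIL-33 arrays, so the counts carry no test. The median difference of the 11 genes was 0.46, with 0.82 within WT and 0.08 within C57BL/6. Without rIL-33 replicate 3 the median was 0.27.

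Gm12185, an immunity-related GTPase also named Irgb2b1, had the largest of these differences, 1.84 (SE 0.73, adjusted p = 0.489). It read 6.31, 7.04, 10.45 and 8.77 with rIL-33 and 6.79, 6.01, 5.94 and 6.47 with PBS. The PBS mean, 6.30, is under the dim cut-off of 6.65, so the gene entered the test through the rIL-33 arrays. Without rIL-33 replicate 3 its difference was 1.07. Gm12250, or Irgb10, which helps guanylate-binding proteins to break open bacteria, read 7.46, 7.67, 10.29 and 8.69 with rIL-33 and 7.37, 7.60, 7.62 and 8.10 with PBS (0.85, SE 0.51, and 0.27 without rIL-33 replicate 3). Its groups overlapped, and its promoter held 2 ISRE cores, at 91 and 46 bases before the start, with GAS letters at 61 bases between them.

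Gm4951, a neighbour of Gm4841 and Iigp1 in the RefSeq annotation, read 8.33, 8.58, 10.01 and 9.60 with rIL-33 and 8.44, 8.24, 7.96 and 8.77 with PBS (0.78, SE 0.34, and 0.49 without rIL-33 replicate 3). Gbp11 read 7.31, 7.39, 8.43 and 7.99 with rIL-33 and 7.28, 7.22, 6.98 and 7.02 with PBS (0.66, SE 0.22, adjusted p = 0.489). Gbp11 was the 1 gene of the 11 in which every rIL-33 array lay above every PBS array, as in 2.44% of all genes tested. Gbp9, Gbp8 and Gbp2b differed by 0.49 (SE 0.18), 0.46 (SE 0.19) and 0.44 (SE 0.21), and the PBS mean of Gbp2b, 6.56, was under the dim cut-off too. Without rIL-33 replicate 3, Gbp8 and Gbp2b differed by 0.28 and 0.23. A probe set shared by Gbp4, Gbp6, Gbp8, Gbp9, Gbp10 and Gbp11 differed by 1.48. The T-cell-specific GTPases Tgtp1 and Tgtp2 share 2 probe sets, which differed by 1.00 and 0.99, with 1.61 and 1.60 within WT and 0.40 and 0.38 within C57BL/6.

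Other relatives had differences nearer to 0. Irgc1, a relative expressed in testis, and Irgq, which lacks the classic interferon response, differed by -0.00209 and -0.003923, and both signs turned under quantile and cyclic loess normalization. Gm1966, listed with the very large inducible GTPases, differed by 0.05, and shared probe sets that name Gvin1 by 0.21 to 0.26. Mx1, a dynamin-like GTPase and classic target of type I interferon, differed by -0.20 (SE 0.20), and Mx2 was dim. Ifi47 shares a probe set with Olfr56, which differed by 0.22, with 0.55 within WT and -0.10 within C57BL/6.

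The level of Ifng, the transcript of interferon-gamma itself, overlapped between the groups. It read 7.01, 7.02, 7.12 and 7.24 with rIL-33 and 7.07, 7.0, 7.22 and 7.16 with PBS (-0.01, SE 0.08, limma adjusted p = 0.976), and the sign of this difference turned under quantile and cyclic loess normalization and with array weights. The Ifng values lay not far above the dim cut-off of 6.65, so this probe set could miss a change. All 4 WT-labelled arrays lay above all 4 C57BL/6-labelled arrays for Ifng, as in 9.13% of all genes tested. Of 19 genes listed for interferon-gamma, its inducers and its signalling, 16 were tested and 0 passed. Of these, 7 were higher and 9 lower, with a median of -0.01. Stat4, which carries the interleukin 12 signal towards interferon-gamma, and Il18, a cytokine that induces it, differed by -0.62 (SE 0.22) and -0.43 (SE 0.15), each with adjusted p = 0.489.

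Irf1, a transcription factor that relays interferon-gamma to these GTPases, shared 3 places in the array order with the 7 genes. Its highest array was rIL-33 replicate 3, the second rIL-33 replicate 4 and the lowest PBS replicate 3. It read 8.37, 8.52, 9.51 and 8.96 with rIL-33 and 8.82, 8.41, 8.17 and 8.42 with PBS. The difference was 0.38 (SE 0.23, adjusted p = 0.599), with 0.94 within WT and -0.17 within C57BL/6, and it was 0.16 without rIL-33 replicate 3. A second probe set of Irf1 differed by 0.08.

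Other targets of interferon-gamma, such as antigen-presentation genes and chemokines, had smaller differences as a list. Of 27 listed, 21 were tested and 0 passed (lowest adjusted p = 0.489). There were 16 higher and 5 lower, with a median of 0.15, which was 0.02 without rIL-33 replicate 3. The median was 0.29 within WT, where 15 of 21 had both rIL-33 arrays above both PBS arrays, against 27% of all genes tested. Within C57BL/6 the median was -0.15, with both rIL-33 arrays below in 8 of 21 and above in 5, against 19% and 14% of all genes tested. Cd274, the inhibitory ligand PD-L1, differed most, by 1.04 (SE 0.43, adjusted p = 0.502), and by 0.51 without rIL-33 replicate 3. It read 8.62, 8.48, 10.88 and 9.19 with rIL-33 and 8.18, 8.29, 8.06 and 8.48 with PBS. Slamf8, a surface receptor of macrophages, differed by 0.37 (SE 0.14, adjusted p = 0.489), and Upp1, a uridine phosphorylase, by -0.32 (SE 0.18, adjusted p = 0.570).

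Genes induced mainly by type I interferon had a median difference near 0. Of 27 tested, 0 passed, 9 were higher and 18 lower, and the median was -0.04 (0.08 within WT and -0.17 within C57BL/6). Within C57BL/6, 26 of the 27 were lower, where 45.3% of all genes tested were above 0. Both rIL-33 arrays lay below both PBS arrays there in 15, against 19% of all genes tested. Within WT 16 were higher, with both rIL-33 arrays above in 2 and below in 3, against 27% and 18.6%. Isg20, an antiviral exonuclease, differed by -0.36, Parp14 by 0.35 and Ifi27l2a by -0.34. Of 15 genes of autophagy and inflammasomes that work with these GTPases, 0 passed, 9 were higher and 6 lower, with a median of 0.01. Casp1 and Casp4, the inflammatory caspases, differed by 0.16 and -0.14, and Atg12, of the autophagy conjugation system, by 0.13. The ISRE core stood in 6 of 10 further GTPases and 2 of 16 interferon-gamma signalling genes with a promoter in the table. It stood in 9 of 22 type I genes, in 4 of 19 other interferon-gamma targets and in 0 of 13 autophagy and inflammasome genes. Over all promoters the share was 2.98%, counted per promoter and not per gene.

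**Figure D3:**
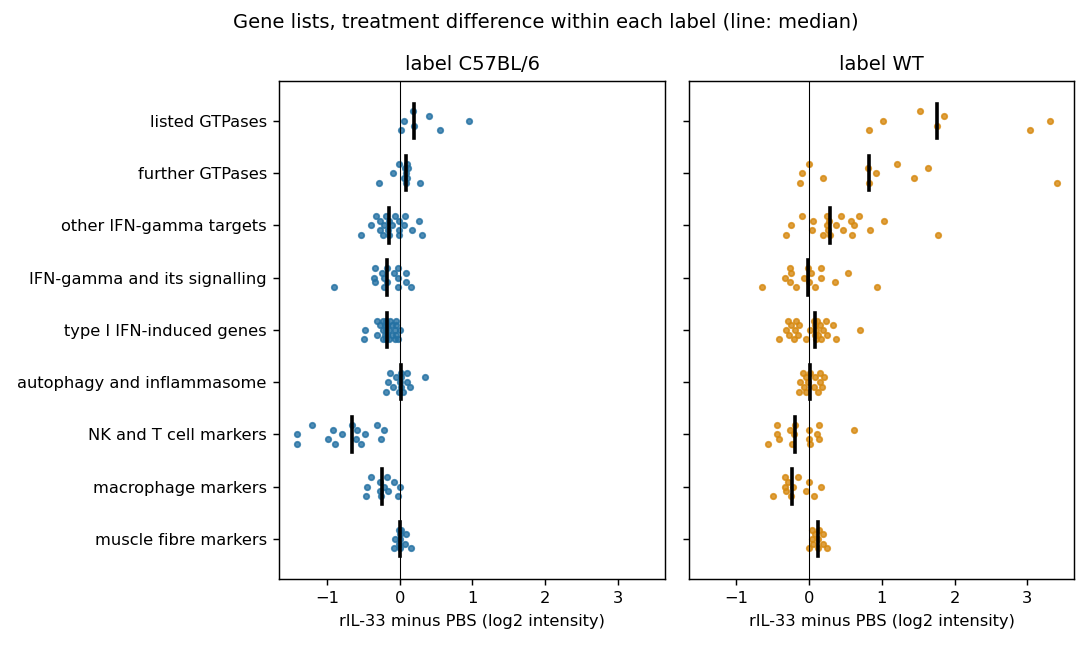
Each point is the treatment difference (rIL-33 minus PBS, log2 intensity) of 1 tested gene within the label C57BL/6 (left) or WT (right), by gene list, and the black line is the median of the list. The listed GTPases have medians of 0.20 and 1.76, other interferon-gamma targets of -0.15 and 0.29, and type I interferon genes of -0.17 and 0.08.

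Markers of the cells that make or answer interferon-gamma were mostly lower with rIL-33, and none passed the test. Of 15 NK and T cell markers tested, 1 was higher and 14 lower with rIL-33, 0 passed the test (lowest adjusted p = 0.489), and the median was -0.39. At an unadjusted p under 0.05, 4 of them were lower, a level that 5.24% of all genes reached as lower. Eomes, Klrk1 and Ncr1 had rIL-33 means of 6.61, 6.50 and 6.63, under the dim cut-off of 6.65. They entered the test, and the count of lower markers, through the PBS arrays, and Eomes is among those 4. Within C57BL/6 all 15 markers were lower, with a median of -0.66. Both rIL-33 arrays lay below both PBS arrays there in 13, against 19% of all genes tested. Within WT, 6 of the 15 were higher and the median was -0.19. Both rIL-33 arrays lay above in 1 and below in 1 there, against 27% and 18.6%. The mean level of the 15 markers relative to PBS was -0.82, -0.48, -0.27 and -0.16 on rIL-33 replicates 1 to 4, and 0.43, -0.23, -0.39 and 0.19 on the PBS arrays. Ccl5, a chemokine of activated T and NK cells, read 8.61, 8.96, 9.06 and 9.35 with rIL-33 and 10.71, 9.67, 9.32 and 9.91 with PBS (-0.91, SE 0.26, adjusted p = 0.489). Ccl5 ran from -1.105 to -0.64 with arrays left out in turn. Cd3g, a chain of the T cell receptor complex, and Nkg7, of cytotoxic granules, differed by -0.88 and -0.80. Without PBS replicate 1, Cd3g and Nkg7 differed by -0.58 and -0.47.

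Of 12 macrophage markers 11 were lower with rIL-33, with a median of -0.23, and Adgre1, C1qb and Cd68 differed by -0.44, -0.38 and -0.30. The mean level of the macrophage markers relative to PBS was -0.33, -0.10, -0.39 and -0.01 on rIL-33 replicates 1 to 4. On PBS replicates 1 to 4 it was 0.11, -0.08, -0.24 and 0.21. Of 7 dendritic cell markers 2 were higher and 5 lower, with Itgax at 0.55, Ccr7 at -0.53 and Cd209a at -0.41. Of 8 endothelial markers 2 were higher and 6 lower, with Eng, Emcn and Cdh5 at -0.33, -0.32 and -0.23. Of 9 neutrophil markers 4 were tested and all 4 were lower, with Ngp, Mmp9 and Csf3r at -0.94, -0.64 and -0.60. Within C57BL/6, 2 of the 4 were higher and the median was 0.05, against -1.235 within WT. The rIL-33 mean of Ngp, 6.23, is under the dim cut-off, so Ngp entered the test through the PBS arrays. Ngp was at -0.33 without PBS replicate 3. With arrays left out in turn, Mmp9 ran from -0.83 to -0.39 and Csf3r from -0.75 to -0.24. The 11 muscle fibre markers had a median of 0.08, with Tnni2, Ttn and Myh4 at 0.13, 0.11 and 0.10. In each of these lists 0 genes passed, and the part of cell composition in the GTPase values was not tested.

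**Figure D4:**
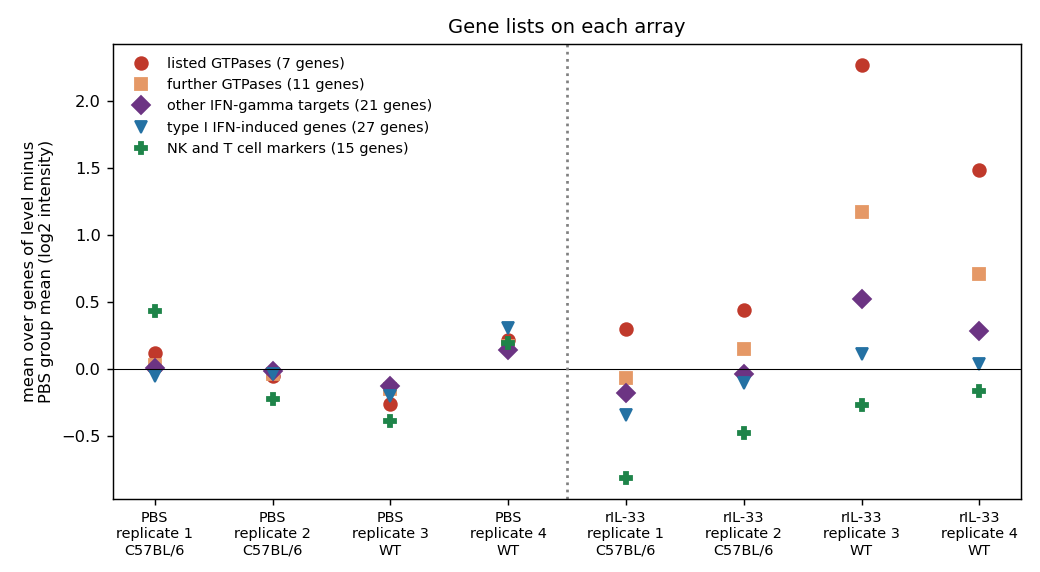
For each array, from PBS replicates 1 to 4 on the left to rIL-33 replicates 1 to 4 on the right, points give the mean over the genes of a list of the log2 level minus that gene's PBS mean. The listed GTPases stand at 2.27 and 1.48 on rIL-33 replicates 3 and 4, and NK and T cell markers at -0.27 and -0.16. These markers stand at -0.39 and 0.19 on PBS replicates 3 and 4, which carry the same label WT. On rIL-33 replicates 1 and 2 they stand lowest, at -0.82 and -0.48.

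Over all 14807 other genes tested, 42 had an r over 0.9 with the mean of the 7 GTPases across the 8 arrays. The 10 of highest r were BC023105 (0.988), Gm12185 (0.988), Gbp8 (0.987), Gbp11 (0.978), Gm4951 (0.975), B230219D22Rik (0.958), Cd274 (0.956), Gbp2b (0.952), Chp2 (0.946) and Psmb8 (0.946). Of these, 5 are further GTPases. BC023105 is annotated as a pseudogene and lies near Iigp1 in the RefSeq annotation. It read 11.21, 11.53, 12.95 and 12.57 with rIL-33 and 10.99, 11.06, 10.78 and 11.21 with PBS, a difference of 1.06 (SE 0.33) with rIL-33 replicate 1 level with PBS replicate 4 to the digits given. Psmb8, a subunit of the immunoproteasome, differed by 0.23, while B230219D22Rik and Chp2 differed by 0.12 and 0.10, small shifts in the same array order. The 3 genes of lowest r were Akap12 (-0.958), Zfp518b (-0.938) and Pgrmc1 (-0.938), with differences of -0.08, -0.08 and -0.24. These values of r are descriptions over arrays that share treatment and label.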

How the data were processed

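RNA of whole injured muscle from 8 samples was hybridised to 1 Affymetrix Mouse Gene 1.0 ST array each. Per the submitters' processing notes, the authors ran RMA in Affymetrix Power Tools, and deposited probe set intensities on a linear scale. Versions and the genome build are not given in the sources used here. Background correction, quantile normalization and probe summary belong to RMA and cannot be undone from the deposited values. The log2 of each deposited intensity was taken first. Signal from other transcripts compresses the folds of dim or cross-hybridising probe sets, and levels of different probe sets were not compared.

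Array medians ran from 222.6 to 232.2. The lower quartile was 88.3 to 93.8 on C57BL/6-labelled and 97.1 to 107.3 on WT-labelled arrays. Arrays give no read depth, and their number limits the precision. Of 24922 probe sets, 21425 had exactly 1 gene symbol in the platform annotation, 1399 had several and 2098 were not listed. Each of 19752 genes was represented by its one-symbol probe set of highest mean, and 4938 genes with a mean log2 intensity under the 25th percentile (6.65) were left out as dim, leaving 14814.

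Treatment, label (with treatment as a covariate) and their interaction were fitted to the 8 arrays together with limma 3.58.1 (R 4.3.3), with Benjamini-Hochberg adjustment over all genes tested and a threshold of 0.05. The fit was tested on simulated data. Figures used matplotlib 3.10.9 in Python 3.11.15.

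The genes and lists were chosen with earlier results of these data known. Named were all 10 GTPases, the measured further GTPases, Ifng and Irf1, up to 3 genes of largest difference in each other list, the 10 genes of highest and 3 of lowest correlation with the GTPases' mean, and genes whose labels went in opposite directions. The alternatives were quantile and cyclic loess normalization, other dim filters, the mean of probe sets, eBayes with trend and robust, array weights, replicate or label blocks, no treatment term in the label fit, subsets of arrays, and each array left out in turn. Protein features were not analysed here.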

Additional observations from a re-analysis of the deposited data

Results flagged for a closer look

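The probe set shared by Gbp11, Gbp10, Gbp9, Gbp6, Gbp8 and Gbp4 had a low value of 9.02 on PBS replicate 3, where the other PBS arrays read 9.35, 9.38 and 9.36. The gap filled 0.917 of the range of the group, above Dixon's critical value for 4 samples. In 54 groups examined, chance gives such a value in about 1 in 20.

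In 12 of 153 genes examined, both rIL-33 arrays lay above both PBS arrays within either label and below both within the other. This compares with 3.57% of all genes tested. The 153 were the tested genes of the lists, without the chosen GTPases, and those named for their r with the GTPases. The WT difference minus the C57BL/6 difference was 0.87 for Irf8 and 0.52 for Socs1, a pair of regulators induced by interferon-gamma. It was 0.82 for Psmb9, 1.06 for Psmb10, 0.43 for Psme2 and 0.52 for Tapbp, which serve antigen processing. Bst2, an interferon-induced restriction factor, stood at 0.14, the cytotoxic granule gene Gzma at 1.20 and the muscle actin Acta1 at 0.13. The autophagy gene Atg3 stood at -0.49 and the neutrophil genes S100a9 and Ngp at -1.79 and -2.35. The limma interaction test, of a treatment difference that depends on the label, had an adjusted p of 0.66 for Ngp and 0.999 for the other 11 genes. None passed.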

How the results depend on the processing

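The 7 GTPases were higher with rIL-33 in all 132 values under the alternatives run, and 12 of these values moved by more than the replicate SD, all of them from arrays of 1 label alone. Their median of 0.94 was 0.20 on C57BL/6-labelled arrays alone, 1.76 on WT-labelled arrays alone, and 0.45 (without rIL-33 replicate 3) to 1.29 with arrays left out in turn.

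The count of genes passing the treatment test, 1, was 2 on C57BL/6-labelled arrays alone, 4 on WT-labelled arrays alone, 1 to 2 with arrays left out in turn (2 without rIL-33 replicate 4), and 0 when replicate numbers formed a block, where 1108 genes were higher and 1219 lower at an unadjusted p under 0.05. Same-numbered arrays had correlations of deviations of 0.44, -0.19, 0.43 and 0.54. The replicate numbers follow the labels, so these values cannot decide whether the numbers pair the samples. BC023105 passed on WT-labelled arrays alone (1.77, limma adjusted p = 0.0431), against 0.489 on all arrays and 0.317 to 1.0 with arrays left out. This gene was picked by its r with the GTPases over the same arrays, so nothing is read from that pass.

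The label test called 1392 genes, but 3432 with array weights, 471 with cyclic loess, 415 with quantile normalization, 892 with the dim filter at the 50th percentile, 796 with no treatment term, 35 on PBS arrays alone and 0 on rIL-33 arrays alone. In that last fit 663 genes were higher and 723 lower at an unadjusted p under 0.05. With arrays left out in turn it called 10 (without rIL-33 replicate 1) to 2509 (without rIL-33 replicate 2). The counts were 52, 111, 21 and 12 without PBS replicates 1 to 4, and 543 and 884 without rIL-33 replicates 3 and 4. Of the 7 GTPases it called 0, and with array weights 3, when 1364 of all genes passed as higher and 2068 as lower. Since that test draws in part on values that chose these genes, neither count supports anything about them. The interaction count of 0 was 0 to 8 with arrays left out, with 1 without PBS replicate 1 and without rIL-33 replicate 3, 5 without PBS replicate 3 and 8 without rIL-33 replicate 4.

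Some uncalled differences changed sign, among them those of Irf1 (0.38 on all arrays), Ngp (-0.94), Psmb8 (0.23) and Casp1 (0.16). With quantile normalization, cyclic loess and array weights, Irgc1 was 0.02421, 0.03048 and 0.001421, Irgq 0.02521, 0.02281 and 0.0003363, and Ifng 0.01647, 0.0196 and 0.02204. On C57BL/6-labelled arrays alone, Gm1966 was -0.0966, Irgc1 0.087, Irf1 -0.1707, Ngp 0.2382, Myh4 -0.002378, B230219D22Rik -0.004689 and Psmb8 -0.003188. On WT-labelled arrays alone Irgq was 0.002925. With arrays left out, Irgc1 ran from -0.0714 to 0.05832, Irgq from -0.01383 to 0.00616, Ifng from -0.05871 to 0.02298, Gm1966 from -0.04242 to 0.1283 and Casp1 from -0.02286 to 0.2559. The cause was not tested where a value moved.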
